A study of Homo sapiens with 6 samples.

Results

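The chromatin accessibility of 10 genes of the YAP, TAZ and TEAD pathway was examined by ATAC-seq, an assay in which the Tn5 transposase cuts and tags open DNA so that read counts rise with accessibility. The genes were YAP1, WWTR1 (which encodes TAZ), TEAD1, TEAD2, TEAD3, TEAD4, AMOTL2, CCN1, CCN2 and ANKRD1. A peak belonged to one of them when its centre lay in the body of the gene in GENCODE release 44 or, for intergenic peaks, when that gene had the nearest protein-coding start. This gave 246 of the 152800 peaks of the deposited count table, 162 in gene bodies and 84 intergenic (outside the body of every protein-coding gene), and all 246 were tested. Peaks were 502 bp wide, so peak width does not set their counts apart. Other properties of a locus that can shift counts, such as GC content, were not corrected for in the counts given here. The cells were A375, an established human melanoma line. One group of 3 libraries carried an empty vector (EV), and the other group of 3 libraries stably overexpressed HMGB2 (HMGB2OE), a chromatin protein that bends DNA. Both groups were made by lentiviral transduction, and about 100000 cells per sample were frozen before library preparation. The study's reporting notes describe the 3 libraries of a group as technical replicates of an experiment that was not repeated, so p-values here measure technical spread only and n = 3 counts libraries, not separate cultures. A higher count can come from more cells with the region open or from more cuts per cell, and bulk libraries cannot tell these apart.

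YAP and TAZ are transcriptional co-activators that do not bind DNA themselves. The Hippo kinases LATS1 and LATS2, which the kinases STK3 and STK4 activate, phosphorylate them and hold them in the cytoplasm. The pathway also reads cell shape, crowding and tension on the actin cytoskeleton. In the nucleus they act through the TEAD proteins, which bind short DNA words, and many of the enhancers they use also bind AP-1, a factor of JUN and FOS proteins with a recognition word of its own. CCN1 (CYR61) and CCN2 (CTGF) encode secreted matrix-associated proteins, ANKRD1 encodes an ankyrin repeat protein of the nucleus and sarcomere, and AMOTL2 encodes an angiomotin-like scaffold that restrains YAP. All 4 are widely used as readouts of YAP and TAZ activity.

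Sequences of some of the regions described below are shown first, in hg38 and 5′ to 3′. They are in lower case, with every TEAD word (GGAATG, or CATTCC on the other strand) and every AP-1 word (TGACTCA on either strand) in capitals. The first pair are the stretches of the 2 ANKRD1 peaks that rose, 9.4 and 39.5 kb upstream of the start of the gene, on the plus strand at chr10:90930461-90930760 and chr10:90960489-90960788.
ANKRD1, 9.4 kb upstream: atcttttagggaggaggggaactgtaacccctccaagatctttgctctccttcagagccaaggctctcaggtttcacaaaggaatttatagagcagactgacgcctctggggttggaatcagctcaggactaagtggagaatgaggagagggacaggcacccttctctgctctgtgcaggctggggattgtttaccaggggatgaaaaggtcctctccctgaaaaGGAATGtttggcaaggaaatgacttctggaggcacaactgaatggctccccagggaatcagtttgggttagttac
ANKRD1, 39.5 kb upstream: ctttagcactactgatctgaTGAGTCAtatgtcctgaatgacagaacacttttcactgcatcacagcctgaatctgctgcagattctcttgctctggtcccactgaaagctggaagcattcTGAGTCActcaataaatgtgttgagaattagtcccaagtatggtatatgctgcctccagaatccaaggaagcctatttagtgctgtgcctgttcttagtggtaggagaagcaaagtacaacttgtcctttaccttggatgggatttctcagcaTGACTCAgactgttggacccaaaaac
The second set are the centres of the intronic peaks of TEAD1 (chr11:12845952-12846151) and WWTR1 (chr3:149580190-149580389), which rose and fell the most among the peaks inside the gene bodies and hold neither word over their whole width. They are followed by the part of a CCN1 peak that fell (chr1:85612002-85612201) and by the coding bases of the last YAP1 exon under a peak that rose (chr11:102229702-102229937), all on the plus strand.
TEAD1, intron: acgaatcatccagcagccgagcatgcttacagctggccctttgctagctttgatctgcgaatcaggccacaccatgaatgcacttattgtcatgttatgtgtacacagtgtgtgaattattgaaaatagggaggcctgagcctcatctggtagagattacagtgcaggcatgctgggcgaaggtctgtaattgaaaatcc
WWTR1, intron: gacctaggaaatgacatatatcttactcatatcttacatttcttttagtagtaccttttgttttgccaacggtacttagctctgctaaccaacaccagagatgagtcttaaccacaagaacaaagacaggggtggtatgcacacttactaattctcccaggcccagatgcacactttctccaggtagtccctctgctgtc
CCN1, 31.3 kb downstream of the start: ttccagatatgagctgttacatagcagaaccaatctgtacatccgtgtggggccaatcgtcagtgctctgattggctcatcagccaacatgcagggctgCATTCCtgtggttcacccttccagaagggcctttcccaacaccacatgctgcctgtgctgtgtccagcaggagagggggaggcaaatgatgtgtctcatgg
YAP1, last exon: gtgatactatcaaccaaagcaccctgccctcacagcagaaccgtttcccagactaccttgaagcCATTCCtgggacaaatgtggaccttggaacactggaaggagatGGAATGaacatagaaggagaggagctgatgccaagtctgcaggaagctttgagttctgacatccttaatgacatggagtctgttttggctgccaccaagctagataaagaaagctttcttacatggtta
The last pair are the 250 bases before the starts of ANKRD1 (chr10:90921088-90921337) and CCN2 (chr6:131951373-131951622) on the minus strand, from RefSeq on GRCh38.p14, shown because they hold the most TEAD words, 2 and 3, among the promoters of these genes in the RefSeq table.
ANKRD1 promoter: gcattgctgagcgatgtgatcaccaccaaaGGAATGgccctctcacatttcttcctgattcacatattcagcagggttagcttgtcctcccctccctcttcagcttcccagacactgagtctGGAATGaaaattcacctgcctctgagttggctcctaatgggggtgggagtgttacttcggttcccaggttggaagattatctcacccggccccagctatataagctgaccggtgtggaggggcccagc
CCN2 promoter: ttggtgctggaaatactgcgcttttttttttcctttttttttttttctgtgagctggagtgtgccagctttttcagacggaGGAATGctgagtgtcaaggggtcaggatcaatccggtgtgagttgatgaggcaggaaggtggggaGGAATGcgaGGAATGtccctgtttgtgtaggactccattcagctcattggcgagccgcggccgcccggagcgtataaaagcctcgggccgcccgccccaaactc

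ANKRD1 held 1 TEAD word in the peak 9.4 kb upstream, 3 AP-1 words in the peak 39.5 kb upstream, and 2 TEAD words in its promoter. The CCN2 promoter held 3 TEAD words. Of the 10 genes, 7 had a promoter in that table, and 4 of these held a TEAD word (YAP1, AMOTL2, CCN2 and ANKRD1), while WWTR1, TEAD2 and TEAD3 held none. Of 35116 RefSeq promoters, 11.9% held a TEAD word in the 250 bases before the start, 330 held at least 2 and 29 at least 3. A match to these letters is a description of the sequence and not a measured site.

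Across the 246 peaks, 6 rose and 3 fell in HMGB2OE libraries, and 6 of the 10 genes had at least 1 such peak. A peak was called when its Benjamini–Hochberg-adjusted p over all tested peaks was under 0.05 in edgeR's quasi-likelihood test and its fold change was at least 1.5. The rises were in YAP1 (2), TEAD1 (2) and ANKRD1 (2), and the falls in WWTR1 (1), CCN1 (1) and CCN2 (1). No peak of TEAD2, TEAD3, TEAD4 or AMOTL2 was called. Over the 150117 tested peaks of the table, 1.87% passed as higher and 1.44% as lower, and over the 246 peaks 2.44% and 1.22% did. The shares of the pathway and of the whole table were close. With no fold limit, 13 of the 246 peaks (5.28%) passed the adjusted p, against 6.47% of all tested peaks. The libraries of the 2 groups did not overlap at 54 of the 246 peaks (22.0%), of which 23 were higher and 31 lower, against 25.1% of all tested peaks. An unadjusted p under 0.05 was found at 52 of the 246 peaks (21.1%) and at 20.9% of all tested peaks. The median log2 fold change was -0.04 over the 246 peaks and -0.0049 over all tested peaks. It was above 0 at 40.7% of the 246 peaks and at 49.2% of all tested peaks. Without EV replicate 1 or without HMGB2OE replicate 1, 3 peaks were called higher, and without EV replicate 3 or without HMGB2OE replicate 2, 5 were called lower.

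**Figure D1:**
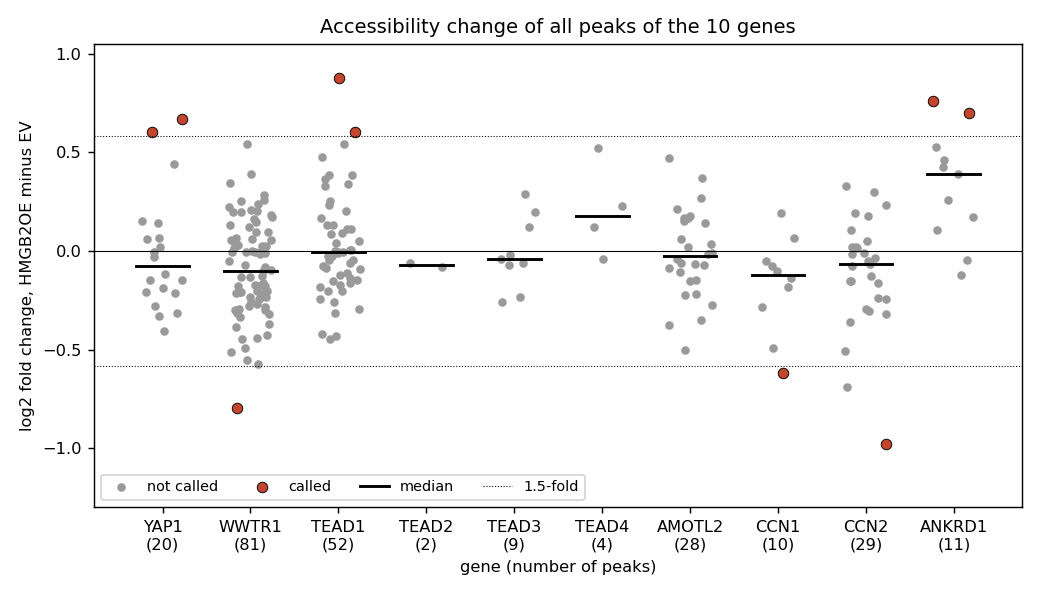
Log2 fold change (HMGB2OE minus EV, y axis) of each of the 246 peaks by gene (x axis, with the number of peaks). Red points are called, black bars are medians and dotted lines mark a fold change of 1.5. Both called ANKRD1 peaks lie above the dotted line, and 9 of the 11 ANKRD1 peaks lie above 0.

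The co-activator genes had few changed peaks among many. YAP1 spans chr11:102110447-102233424 on the plus strand. Of its 20 peaks, 2 rose, 18 were not called, and the median log2 fold change was -0.07. The stronger of the 2 lay over the last exon (chr11:102229567-102230068, 119.4 kb downstream of the start), with 236 coding bases, part of the 3′ untranslated region and part of the intron before it. Its normalised read counts, scaled to a common library size, were 202, 224 and 207 in EV and 355, 309 and 298 in HMGB2OE libraries. Every HMGB2OE library was above every EV library, a rise of 1.52-fold (log2 fold change 0.60, standard error [SE] 0.118, edgeR adjusted p = 0.00182). The other lay in an intron 5.3 kb downstream of the start (chr11:102115472-102115973), at 59.8, 83.5 and 58.5 in EV and 112, 116 and 96.8 in HMGB2OE. These low counts gave a log2 fold change of 0.67 (SE 0.186, edgeR adjusted p = 0.0268). The call at the last exon was lost with GC-content offsets (0.58) and without EV replicate 1 (0.58) or HMGB2OE replicate 1 (0.52). The call in the intron was lost with DESeq2 (adjusted p = 0.0579) and without EV replicate 1 (0.0825) or 3 (0.0947) or HMGB2OE replicate 1 (0.101) or 2 (0.106).

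WWTR1, at chr3:149517235-149736714 on the minus strand, had the most peaks of the 10 genes, 81, all centred in the gene body. One fell, 0 rose, 52 had a log2 fold change below 0 and the median was -0.10. The intronic peak that fell (chr3:149580039-149580540) had counts of 552, 587 and 535 in EV and 353, 318 and 293 in HMGB2OE libraries. No HMGB2OE library reached the EV range, with a log2 fold change of -0.79 (SE 0.103, edgeR adjusted p = 2.27e-05), and the call was kept in all 16 alternatives run on it. Both of the strong peaks beside it missed the threshold. The intronic peak at chr3:149581722-149582223 had 1730 ± 121 normalised counts in EV and 1726 ± 76.3 in HMGB2OE (SD, n = 3 each), and the one at chr3:149576087-149576588, over an internal start of the gene, had 2058 ± 186 and 1842 ± 93.8. These 2 neighbours were chosen for their position after their values were seen.

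Among the TEAD genes, only TEAD1 (chr11:12674421-12944737, plus strand) had called peaks, 2 of its 52. An intronic peak 171.6 kb downstream of the start (chr11:12845801-12846302) had counts of 146, 190.1 and 224 in EV and 359, 309 and 369 in HMGB2OE. It rose 1.84-fold (log2 fold change 0.88, SE 0.131, edgeR adjusted p = 0.000116), the largest rise among the 246 peaks, and was called in all 16 alternatives. An intergenic peak 133.3 kb upstream (chr11:12540857-12541358) was weaker, at 84.8, 62.8 and 78.4 in EV and 114, 104 and 123 in HMGB2OE (log2 fold change 0.61, SE 0.177, edgeR adjusted p = 0.0359), and its call was lost in 10 of 16 alternatives, among them DESeq2 (adjusted p = 0.0784) and the omission of any 1 library other than EV replicate 1. Without EV replicate 2 its log2 fold change was 0.48 (adjusted p = 0.195). The median over the 52 TEAD1 peaks was -0.01.

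TEAD2 had 2 peaks, TEAD3 had 9 and TEAD4 had 4, with 0 called by edgeR or by DESeq2 in each gene and 0, 1 and 1 peaks at an unadjusted p under 0.05 (20.9% of all tested peaks). Their log2 fold changes ranged from -0.08 to -0.06 in TEAD2, from -0.26 to 0.29 in TEAD3 and from -0.04 to 0.52 in TEAD4. The TEAD4 peak at 0.52, in an intron 39.7 kb downstream of the start, had counts of 57.0, 60.2 and 101 in EV and 97.8, 94.3 and 122 in HMGB2OE. The groups overlapped there (edgeR adjusted p = 0.125).

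AMOTL2, the scaffold gene, had 28 peaks, 23 of them intergenic, and 0 were called by edgeR or DESeq2, with 7 of the 28 at an unadjusted p under 0.05, against 20.9% of all tested peaks. One intergenic peak 44.3 kb upstream of the start (chr3:134419526-134420027) passed the adjusted p under the fold limit. It had counts of 322, 349 and 357 in EV and 419, 448 and 467 in HMGB2OE, which did not overlap (log2 fold change 0.37, SE 0.103, edgeR adjusted p = 0.0265). It held 1 TEAD word. The strongest AMOTL2 peak, in an intron (chr3:134366900-134367401), had 2252 ± 172 counts in EV and 2485 ± 240 in HMGB2OE (SD, n = 3 each), a difference within the spread (edgeR adjusted p = 0.318).

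Of the 3 readout genes besides AMOTL2, CCN1 and CCN2 each had a peak that fell, and ANKRD1 had 2 that rose. CCN1 (chr1:85580761-85584589, plus strand) had 10 peaks, of which 8 had a log2 fold change below 0 and 1 fell. That peak lay 31.3 kb downstream of the start (chr1:85611821-85612322), with counts of 233, 263 and 309 in EV and 178, 175 and 173 in HMGB2OE. All HMGB2OE libraries were below all EV libraries (log2 fold change -0.62, SE 0.126, edgeR adjusted p = 0.00291), and without EV replicate 3 the fall was -0.51 (adjusted p = 0.024), under the fold limit. A stronger CCN1 peak 26.7 kb downstream (chr1:85607170-85607671), with 2 TEAD words and 1 AP-1 word, had 1354 counts in EV and 1233 in HMGB2OE on average (log2 fold change -0.14, SE 0.0889, edgeR adjusted p = 0.403).

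CCN2 (chr6:131948176-131951372, minus strand) had 29 peaks, 27 of them intergenic, and 1 fell. It lay 103.2 kb upstream of the start, in the body of the long non-coding gene LINC01013 (chr6:132054361-132054862), and held neither word. Its counts were low, at 82.0, 74.0 and 78.4 in EV and 29.8, 50.9 and 37.2 in HMGB2OE. The log2 fold change was -0.98 (SE 0.235, edgeR adjusted p = 0.0100), and without HMGB2OE replicate 1 it was -0.81 with an adjusted p of 0.0773. The 2 strongest CCN2 peaks did not pass the test. The first of them, 180.6 kb upstream (chr6:132131708-132132209), had 1062, 1176 and 1250 counts in EV and 1220, 1127 and 1121 in HMGB2OE, with overlapping groups and a log2 fold change of -0.01 (SE 0.0818). The second was the promoter peak, described with the other promoters.

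At ANKRD1 (chr10:90912096-90921087, minus strand), 2 of 11 peaks rose and 9 of 11 had a log2 fold change above 0, with a median of 0.39. The peak 9.4 kb upstream (chr10:90930259-90930760) had counts of 375.2, 493 and 507 in EV and 739.5, 711 and 797 in HMGB2OE. The lowest HMGB2OE library was above the highest EV library, a rise of 1.62-fold (log2 fold change 0.70, SE 0.102, edgeR adjusted p = 9.12e-05). The peak 39.5 kb upstream (chr10:90960358-90960859) had 271, 268 and 294 in EV and 455, 456 and 499 in HMGB2OE, with no overlap and a rise of 1.69-fold (log2 fold change 0.76, SE 0.105, edgeR adjusted p = 5.05e-05). The latter was called in all 16 alternatives, and the former was lost only without EV replicate 1, where its log2 fold change was 0.58 and its adjusted p 0.000408.

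A further 2 ANKRD1 peaks passed the adjusted p but not the fold limit, and lay close together 101.5 and 102.5 kb upstream. The first (chr10:91022307-91022808) had 113, 96.4 and 118 counts in EV and 153, 168 and 147 in HMGB2OE (log2 fold change 0.53, edgeR adjusted p = 0.0293). The second (chr10:91023337-91023838) had 371, 421 and 415 in EV and 539, 529 and 521 in HMGB2OE (log2 fold change 0.39, edgeR adjusted p = 0.0131). Neither held a TEAD or an AP-1 word. The strongest peak of the locus, 47.9 kb upstream, had 1083, 1194 and 1226 in EV and 1329, 1202 and 1237 in HMGB2OE, and its groups overlapped (log2 fold change 0.10, SE 0.0801). No ANKRD1 peak was centred in the gene body, and the 2 peaks nearest to the gene, at the promoter and 9.4 kb downstream of the start, had log2 fold changes of -0.12 and -0.04. The other 112 tested peaks within 1 Mb of ANKRD1 had a median log2 fold change of 0.01, with 2 called higher and 1 lower.

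**Figure D2:**
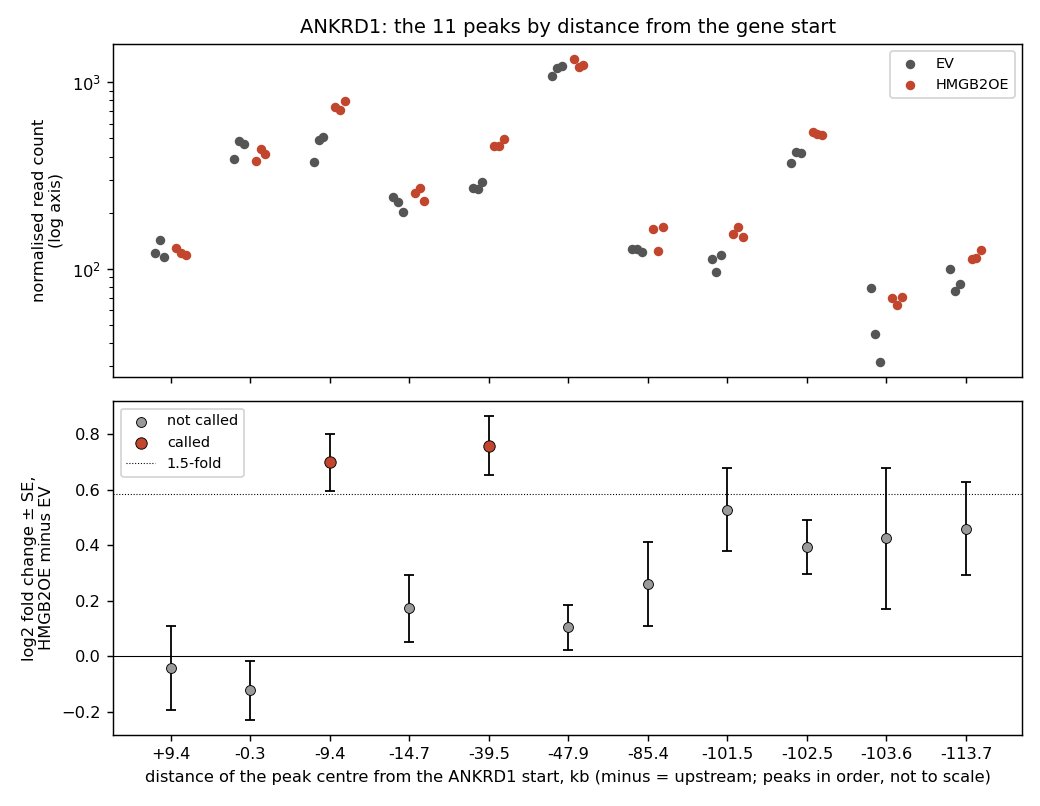
The 11 ANKRD1 peaks in order of distance from the start of the gene (x axis, kb, not to scale). The upper panel gives the normalised read count of each library on a log axis, and the lower panel the log2 fold change with its standard error. Red points are called. The peaks at 9.4 and 39.5 kb upstream lie at 0.70 and 0.76, and the promoter peak lies below 0.

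**Figure D3:**
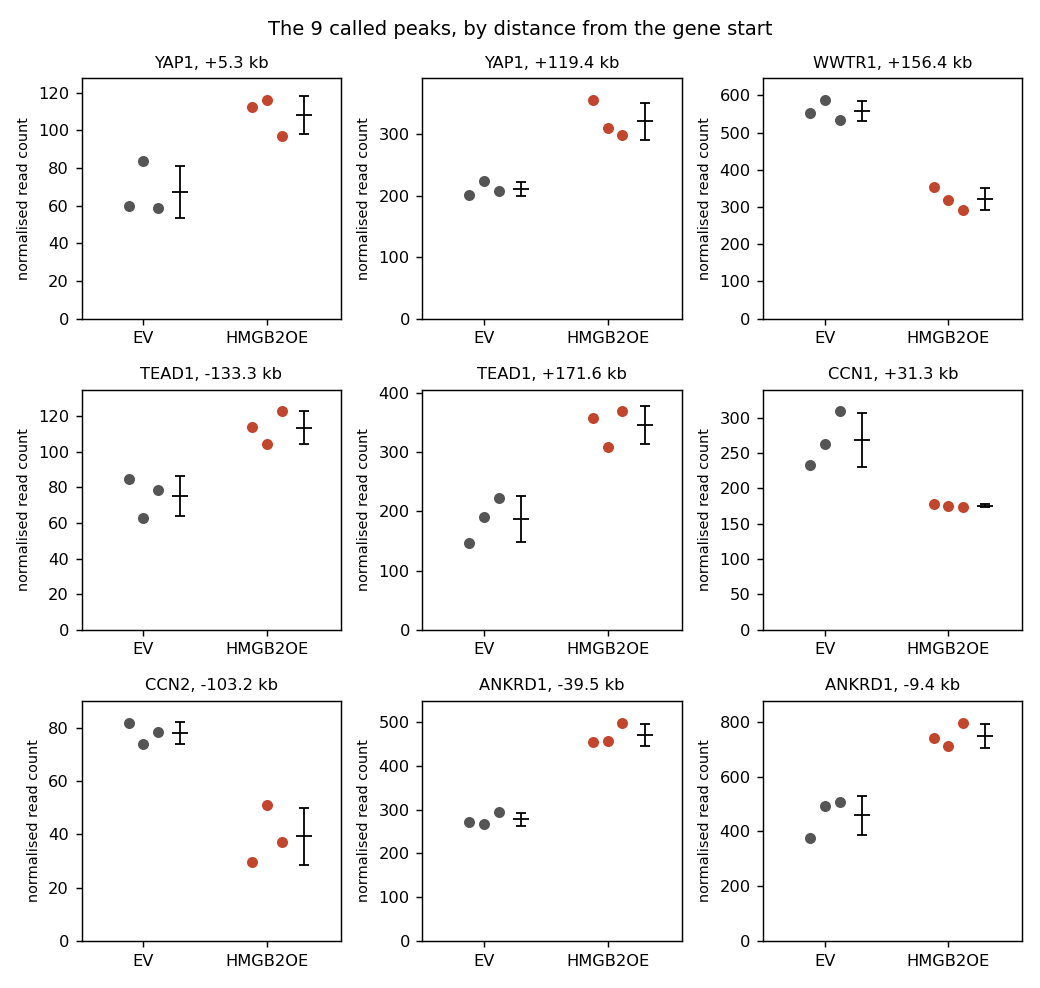
Normalised read counts (y axis, from 0) of the 9 called peaks in the 3 EV libraries (grey) and 3 HMGB2OE libraries (red), with the mean and SD beside them. Panel titles give the gene and the distance of the peak from its start. In each panel the 2 groups do not overlap, but the panels were chosen by the test on these same counts.

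Counts summed over all peaks of a gene, fitted over 18341 genes with at least 1 tested peak, rose at ANKRD1 and at no other of the 10 genes. The sums at ANKRD1 were 3319, 3471 and 3533 in EV and 4349, 4246 and 4414 in HMGB2OE libraries, a rise of 1.26-fold (log2 fold change 0.33, SE 0.0402, edgeR adjusted p = 0.000112). Of all genes, 9.27% passed this test, 1070 higher and 631 lower, so that 1 of 10 is near the background. The sum contains the called peaks. Over the 9 ANKRD1 peaks that were not called, the summed normalised counts were 2740.2 ± 99.7 in EV and 3066 ± 56.6 in HMGB2OE (SD, n = 3 each), a ratio of 1.12. With the same scaling, all 11 peaks gave a ratio of 1.23. The 9 still include the peaks 101.5 and 102.5 kb upstream, which passed the adjusted p but not the fold limit. When peaks were assigned only to gene bodies and to the 3 kb around starts, the ANKRD1 sum had a log2 fold change of -0.08 (adjusted p = 0.681), since its upstream peaks were then left out.

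The sums of the other 9 genes did not pass the test, with log2 fold changes from -0.10 at CCN1 to 0.11 at TEAD4. CCN1 had sums of 4498, 5029 and 5247 in EV and 4710.0, 4488 and 4576 in HMGB2OE, with overlapping groups (edgeR adjusted p = 0.188), and without EV replicate 1 it passed (log2 fold change -0.16, adjusted p = 0.0241). TEAD4 had 1501, 1505 and 1577 in EV and 1561, 1750 and 1626 in HMGB2OE, which overlapped (edgeR adjusted p = 0.214). For YAP1, WWTR1, TEAD1, TEAD3, CCN2 and AMOTL2 the 95% intervals of the log2 fold change lay between -0.13 and 0.11. For TEAD2, with 2 peaks, the interval ran from -0.24 to 0.16.

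**Figure D4:**
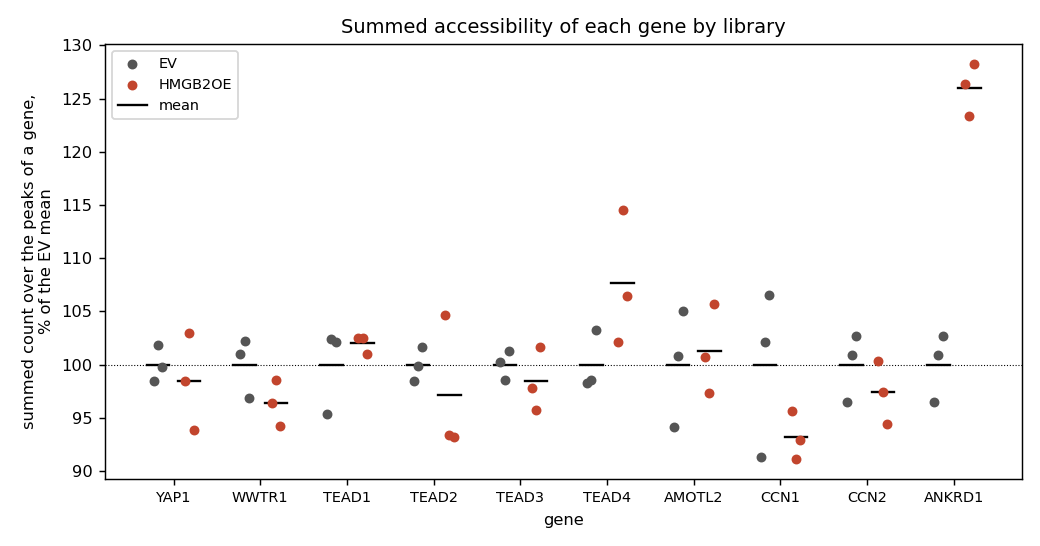
Summed normalised count over the peaks of each gene (y axis, percent of the EV mean) in each library of both groups, with group means as bars. The HMGB2OE libraries of ANKRD1 lie between 123% and 128%, above every EV library, and in each of the other 9 genes the groups overlap.

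At promoters, the strongest peak within 3 kb of a protein-coding start was compared for each gene. In EV libraries the levels fell in the order WWTR1 (2058 ± 186 normalised counts, SD, n = 3), TEAD2 (1769 ± 50.9), AMOTL2 (1628 ± 93.6), CCN1 (1239 ± 145), YAP1 (886 ± 29.3), CCN2 (833 ± 48.7), TEAD4 (769 ± 28.3), TEAD1 (624 ± 45.2), ANKRD1 (446 ± 50.5) and TEAD3 (332 ± 7.49). The ranges of the 3 libraries overlapped between the neighbours TEAD2 and AMOTL2, YAP1 and CCN2, and CCN2 and TEAD4, and between no other neighbours. The GC content of these peaks ran from 46.2% at WWTR1 to 82.1% at TEAD3, and its part in this order was not tested. The TEAD2 peak was centred in the body of the adjacent gene DKKL1, so it was not among the 246. The WWTR1 peak lay over an internal start, 160.4 kb downstream of the start of the gene. The strongest WWTR1 peak over another internal start (chr3:149657916-149658417) had 1845 ± 75.0 counts in EV. The WWTR1 peak 0.3 kb downstream of the start of the gene (chr3:149736167-149736668) was not the one ranked, and its counts are not given here.

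None of the 10 promoter peaks passed the test, and all 10 had a log2 fold change below 0, from -0.19 at YAP1 to -0.04 at TEAD4. With a loess trend removed each of the values became smaller in size, from -0.14 at YAP1 to 0.01 at TEAD4. The TEAD3 value turned to 0.0046 without HMGB2OE replicate 3. Of all tested peaks, 49.2% had a log2 fold change above 0, and this share was not computed for promoter peaks alone. The largest differences were at YAP1, with counts of 856, 915 and 888 in EV and 734, 852 and 745 in HMGB2OE (SE 0.0862, edgeR adjusted p = 0.200), and at TEAD2, with 1819, 1717 and 1769 in EV and 1508, 1556 and 1612 in HMGB2OE (log2 fold change -0.18, edgeR adjusted p = 0.141). In both genes every HMGB2OE library was below every EV library. WWTR1 followed at -0.16 (edgeR adjusted p = 0.230) and passed without EV replicate 1 (-0.23, adjusted p = 0.0395). At CCN2, the counts were 784, 835 and 881 in EV and 822, 741 and 727 in HMGB2OE, and the groups overlapped (log2 fold change -0.13, 95% interval -0.30 to 0.04). At ANKRD1 they were 389, 484 and 466 in EV and 380.0, 441 and 414 in HMGB2OE (-0.12, interval -0.33 to 0.09). At CCN1 they were 1077, 1283 and 1356 in EV and 1240.2, 1146 and 1146 in HMGB2OE (-0.08, interval -0.24 to 0.09). Of all 29 promoter peaks of the pathway, 0 were called by edgeR or DESeq2 and 5 had an unadjusted p under 0.05, which 20.9% of all tested peaks had. The called shares over every tested promoter peak were 0.695% higher and 0.596% lower.

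**Figure D5:**
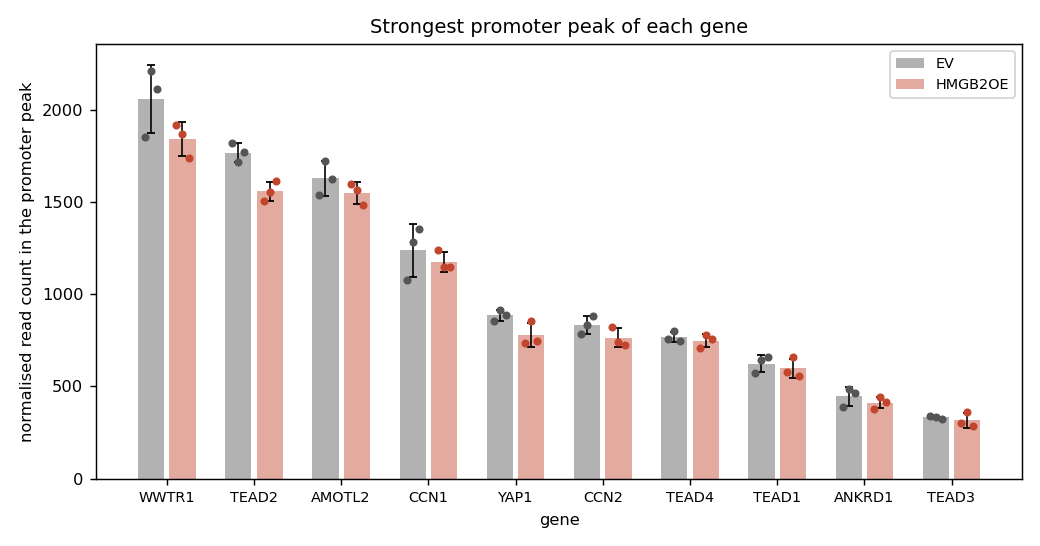
Normalised read count (y axis, from 0) in the strongest promoter peak of each gene, ordered by the EV mean. Bars are means of 3 libraries, error bars are SD and points are libraries. The WWTR1 peak lies over an internal start of the gene. The HMGB2OE mean lies below the EV mean in all 10 genes, and none of these differences passed the test.

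The words were then counted in every peak. TEAD words were present in 84 of the 246 peaks (34.1%) and in 29.0% of all tested peaks, and AP-1 words in 61 (24.8%) and 28.0%. Both words were present in 17 peaks (6.91%), against 8.73% of all tested peaks. Among the 84 peaks with a TEAD word, 3 rose and 1 fell, and among the 162 without one, 3 rose and 2 fell. Of all tested peaks, 2.18% of those with a TEAD word rose and 1.75% fell, and 1.74% and 1.32% of those without one did. Among the 61 with an AP-1 word, 1 rose and 0 fell, and among the 185 without one, 5 rose and 3 fell. Of all tested peaks, 2.39% of those with an AP-1 word rose and 1.76% fell, and 1.66% and 1.32% of those without one did. With so few called peaks, no difference by word was read from these counts. AMOTL2 (16 of 28), CCN1 (8 of 10) and TEAD4 (3 of 4) had a TEAD word in most of their peaks, and ANKRD1 in 5 of 11.

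The other genes of the pathway were described in the same way, as counts with no test of the list. Of 439 peaks of 28 Hippo pathway genes and TEAD partners, 4 rose (0.911%) and 6 fell (1.37%), and the median log2 fold change was -0.03. STK4, the gene of a core Hippo kinase, held 2 of the falls, with log2 fold changes of -0.91 each (adjusted p = 4.67e-05 and 0.0018 from edgeR). Another 2 fell at VGLL2, a TEAD cofactor gene (-1.15 and -0.90), 1 rose at FRMD6, an upstream Hippo regulator (0.82), and 1 fell at STK3, the paralogous kinase gene (-0.71). Summed over their peaks, the counts rose at WWC1 (0.17) and VGLL1 (0.21) and fell at STK4 (-0.18) and NF2 (-0.17), 4 of the 28 genes. Over all genes, 9.27% of the summed counts passed the adjusted p. Of 588 peaks of 22 further YAP and TAZ target genes, 4 rose (0.680%) and 16 fell (2.72%), with a median of -0.04. Of these, 2 rose and 5 fell at IGFBP3, which encodes an IGF-binding protein, 1 rose and 5 fell at CRIM1, a transmembrane protein gene, 2 fell at NT5E, the ectonucleotidase CD73, and 2 fell at GADD45A, a stress response gene. These 4 genes are named for their number of called peaks. All called peaks of VGLL2, IGFBP3, CRIM1 and GADD45A were intergenic and were given to these genes only by the nearest start. The same held for the NT5E peak at chr6:85124828-85125329 and for the TPM1 and MYH9 peaks below. Those of IGFBP3 were spread over chr7:46032897-46591753 and those of CRIM1 over chr2:35080332-36334087. The summed counts of this list rose at CCDC80 (0.16) and fell at CCN5 (-0.13), beside the same 9.27% over all genes. Of 217 peaks of 18 SRF and MRTF genes of the actin response, 2 rose (0.922%) and 5 fell (2.3%), with a median of -0.04 and no summed count past the threshold. At VCL, which encodes the adhesion protein vinculin, 1 rose (0.69) and 2 fell (-1.07 and -0.59), and 1 fell at each of FHL2 (-0.65), TPM1 (-1.0) and MYH9 (-0.71), genes of a LIM protein, a tropomyosin and non-muscle myosin. For all tested peaks these shares were the 1.87% and 1.44% given above, and LATS2 and PTPN14 are in both of the first lists.

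Library totals in peaks ranged from 26910189 to 45645294 counts, lowest in EV replicate 1. Of 8 melanocyte and neural crest markers, SOX10, MITF, PMEL and S100B had a promoter peak, at mean counts from 862 to 3768, and TYR, TYRP1, DCT and MLANA had none. Of the markers of other cell types reported here, 4 had one, from 27.3 at PECAM1 to 248 at CD3E, and the epithelial, immune, endothelial, erythroid and liver genes CDH1, PTPRC, VWF, HBB and ALB had none. Among the 88 peaks of the melanocyte list 0 rose and 2 fell (2.27%), 1 each at MITF (-0.59) and DCT (-0.72), against the 1.87% higher and 1.44% lower of all tested peaks. The DCT peak was intergenic and was given to DCT only by the nearest start. The summed count of DCT also fell (log2 fold change -0.46, edgeR adjusted p = 0.0325), where 9.27% of all gene sums passed the adjusted p. Among the peaks of the other cell types' markers reported here, 1 rose (EPCAM, 0.92), 5 of 39 fell at PTPRC and 1 of 9 fell at CDH1. Of the PTPRC falls, those at chr1:198713079-198713580 and chr1:198656483-198656984 lay in introns. The others were intergenic and were given to PTPRC only by the nearest start. The part of these markers in the results was not tested. HMGB2 itself had 2 peaks over coding exons. The counts of one were 32.0, 21.5 and 32.8 in EV and 55.3, 75.1 and 58.5 in HMGB2OE (edgeR adjusted p = 0.00822), and those of the other were 50.03, 24.95 and 21.06 in EV and 102, 101 and 92.3 in HMGB2OE (edgeR adjusted p = 0.000113). Both were higher in every HMGB2OE library, and reads of the vector copy and of the endogenous gene cannot be told apart there.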

How the data were processed

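ATAC-seq libraries of A375 cells (3 EV and 3 HMGB2OE) were grouped by the genotype in the labels. Per the labels and the study's methods, the authors used Trim Galore 0.6.7 (quality 15) and cutadapt 4.0 for trimming, Bowtie 2 for alignment to hg38, Picard for deduplication and MACS2 (p setting 0.001) for peaks against a public melanocyte dataset, and then merged peaks within 500 bp and counted reads per peak with featureCounts. The deposited values are these raw counts, with no normalization and no pooling. Peak calling per library or on pooled libraries, the treatment of reads with several alignments and any shift for Tn5 are not given in the sources used here. Peak coordinates are those of the table, whose starts may be counted from 0.

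Counts were tested with edgeR 4.0.16 (R 4.3.3), with TMM, filterByExpr and the quasi-likelihood test of HMGB2OE against EV without covariates, over 150117 peaks or 18341 gene sums, and p-values were Benjamini–Hochberg adjusted over each whole table. Calls needed an adjusted p under 0.05 and, for peaks, a fold of at least 1.5. Normalised counts were counts divided by the effective library size and multiplied by the mean size, with separate factors for gene sums. A standard error (SE) was taken as |log2 fold change|/√F. Library totals were 26910189 to 45645294 counts, and replicates differed beyond sampling noise (chi-square per degree of freedom 2.50 to 4.66), so none was taken for a library deposited more than once. The code was tested on simulated counts with known changes.

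The genes, lists and rules were chosen with earlier results of these data known. All 10 genes are named, each by its strongest promoter peak and every called peak, or, where none was called, the peak past the adjusted p with the lowest p. From the other lists, at most 4 genes with called peaks are named, those with the most. The remaining named peaks were chosen once values were known. Alternatives were 3 other scalings, DESeq2 1.42.0, 2 filters, a replicate block, GC-content and 10 Mb window offsets, leaving out each library, fold limits of 1.25 and none, and 2 other assignments of peaks to genes. One marker of the other cell types is not reported here.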

Additional observations from a re-analysis of the deposited data

How the results depend on the processing

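Of the 9 called peaks, 3 kept their call in all 16 alternatives run on single peaks. They were the intronic peaks of WWTR1 and TEAD1 and the ANKRD1 peak 39.5 kb upstream. The ANKRD1, CCN1 and CCN2 peaks at 9.4, 31.3 and 103.2 kb each lost the call in 1. These 16 did not include the 2 other assignments of peaks to genes. With every peak given to the nearest gene start, 4 peaks were called higher and 2 lower, and 1 gene sum passed. Which called peaks left the 10 genes under that assignment was not listed. Leaving out 1 library at a time gave 3 to 7 peaks called higher (6 with all libraries), 2 to 5 called lower (3 with all) and 1 to 2 gene sums past the adjusted p (1 with all), the second being CCN1. With peaks assigned only to gene bodies and 3 kb around starts, 171 peaks remained, 3 were called higher and 1 lower, and 0 gene sums passed, with ANKRD1 at a log2 fold change of -0.0784, since fewer peaks were assigned. With 10 Mb window offsets the sums of TEAD1 (-0.0034), TEAD2 (0.0398), TEAD3 (0.011) and AMOTL2 (-0.0058) changed sign, and with the loess trend removed so did the TEAD4 promoter (0.0072). Over the omissions of 1 library the sign was not stable for the sums of YAP1 (-0.0564 to 0.0094), TEAD1 (-0.0043 to 0.0455) and AMOTL2 (-0.0239 to 0.0562) and for the TEAD3 promoter (-0.169 to 0.0046). None of these values passed the test, and the cause was not tested. With the replicate number as a block (replicate block), 6 peaks were called higher, 3 lower and 1 gene sum, as without it, and with GC-content offsets added 4 were called higher. The labels do not say that the numbers mark shared cultures, and deviations of same-numbered libraries correlated at -0.089, 0.18 and 0.13, so the numbers were not taken to pair the samples, and not every library correlated best with its own number (HMGB2OE replicate 1 did so with EV replicate 2). DESeq2 called 4 higher and 3 lower. The YAP1 peaks at 5.3 and 119.4 kb and the TEAD1 peak at 133.3 kb lost their calls in 5, 4 and 10 of 16 alternatives. Mean EV counts at these 3 peaks were 67.2, 211 and 75.3. The CCN2 peak, with means of 78.1 in EV and 39.3 in HMGB2OE, lost its call in 1. A limit set by depth was not tested.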
